A study of Mus musculus with 3 samples.

Results

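Oligodendrocyte precursor cells (OPCs) of the mouse arcuate nucleus were 958 of 14869 cells in 3 single-cell libraries, chosen by their measured levels of marker genes. Of 21143 barcodes, those counted as cells had 500 or more detected genes and took no more than 20% of their unique molecular identifiers (UMIs, 1 per captured transcript molecule) from mitochondrial genes. A cell was an OPC when at least 3 of 5 marker genes were detected, Pdgfra among them, and when it held fewer than 2 UMIs of Bmp4, 3 of Enpp6, 2 of Cldn5 and 2 of Cx3cr1. Bmp4 and Enpp6 mark the next steps of the lineage, Cldn5 endothelial cells and Cx3cr1 microglia. These genes chose the cells, so their levels are a description. The labels list oligodendrocytes among the cell types of the samples and do not name OPCs.

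OPCs carry the platelet-derived growth factor receptor alpha (Pdgfra), through which PDGF drives their survival and division. They persist in the adult brain, where some divide, some leave the cycle and become newly formed and then myelinating oligodendrocytes, and they receive synaptic input from neurons through glutamate and GABA receptors. In the hypothalamus the arcuate nucleus borders the median eminence, where OPCs and their progeny lie close to blood-borne metabolic signals.

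The tissue came from male C57BL/6JRj mice of 5 to 6 weeks, taken from weaning onto 1 of 3 feeding schedules. One group ate standard chow (SC) for 15 days, one was moved after 10 days of chow to 5 days of a diet high in fat and sugar (HFHS), and one had the HFHS diet throughout, for 15 days. The arcuate nuclei of 6 mice were pooled into 1 suspension per schedule, so there is 1 library per diet, no replicate, and no test between diets. Every interval below is a 95% counting interval and holds neither the spread between mice nor that between preparations. The design asks how the cells of the nucleus differ after a short and a longer exposure to the HFHS diet.

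The OPCs numbered 366 in the SC library, 289 in the 5-day library and 303 in the 15-day library. They were 7.15% (6.46 to 7.89, exact binomial interval), 6.80% (6.06 to 7.6) and 5.51% (4.92 to 6.14) of the cells of their libraries. The 15-day share lay below the SC share, with a log2 ratio of -0.38 (-0.60 to -0.15), and the 5-day share did not separate from it at this depth, with a log2 ratio of -0.07 (-0.30 to 0.15). The share is of cells that survived dissociation, and no value here gives the number of OPCs in the tissue.

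The 15-day library was also the shallowest. An OPC held a median of 7483 UMIs and 3438.5 genes under SC, 8939 UMIs and 3840 genes at 5 days, and 5552 UMIs and 2804 genes at 15 days. Mitochondrial genes took a median of 4.18%, 4.32% and 4.59% of the UMIs of an OPC. Ribosomal protein genes took 5.73%, 5.31% and 7.32% of all OPC UMIs. No OPC barcode was shared between libraries.

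All 5 markers were detected in 748 OPCs, 4 in 123 and 3 in 87. Just outside lay 91 cells with Pdgfra and only 1 other marker (27, 22 and 42 in the SC, 5-day and 15-day libraries). A further 78 cells held at least 3 markers but no Pdgfra UMI. The limit on Bmp4 was broken by 20 cells with the markers (3, 5 and 12) and that on Enpp6 by 17 (3, 3 and 11). The limit on Cldn5 was broken by 58 (16, 9 and 33) and that on Cx3cr1 by 26 (7, 4 and 15). A cell that broke several limits was counted under each. The marker genes lie at chr5:75152292-75198215 (Pdgfra), chr11:102939264-102946688 (C1ql1, a complement-related secreted protein), chr2:164389393-164405160 (Matn4, a matrix protein), chr5:22746059-23275597 (Lhfpl3) and chr11:107732357-107794557 (Cacng4, an AMPA receptor auxiliary subunit) in GRCm38.

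Part of the OPC transcripts came from cells that also carried another cell type's markers. OPCs with at least 5 of the 6 markers of a class outside the precursor stages of the lineage (red blood cells left out), called mixed cells here and defined after the data were seen, numbered 64 (17.5%), 33 (11.4%) and 39 (12.9%) in the SC, 5-day and 15-day libraries. They were deep, with a median of 12932, 16160 and 10769 UMIs, and held 39.3%, 28.7% and 28.6% of all OPC UMIs. Deeper cells detect more markers of any class, so depth enters this definition. In the SC library 31 of them met the count for astrocytes, 22 for neurons, 14 for mature oligodendrocytes and 14 for ependymal cells, and a cell could meet several. Scrublet, which scores likely doublets, placed 32, 19 and 20 OPCs among the highest scores of their library, and 23, 11 and 12 of these were mixed cells. Values are therefore given for all OPCs and, where computed, without mixed cells.

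The summed level of the 6 mature oligodendrocyte markers in OPCs was 898 CPM (UMIs per 1000000 UMIs of the summed cells) under SC, 185 at 5 days and 388 at 15 days, and 123, 76.2 and 109 CPM without mixed cells. The 6 ependymal markers summed to 714, 170 and 481 CPM, and to 71.7, 41.7 and 62.7 CPM without mixed cells. The 6 neuron markers summed to 5433, 6410 and 3627 CPM, and to 1370, 1331 and 1406 CPM without mixed cells. In each of these sums every marker of the class was above 0.

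The label of the cells held against genes that the rule did not use. Genes of OPC identity were detected in most cells. Cspg4, the NG2 proteoglycan, was detected in 91.3%, 90.7% and 89.4% of OPCs and in 1.55%, 0.852% and 1.37% of microglia, which should lack it and whose median depths were 6630, 7442 and 5722 UMIs. Olig2, a lineage transcription factor, was detected in 91.0%, 91.7% and 83.8% of OPCs, and Sox10, its partner in the lineage, in 81.4%, 87.5% and 84.5%. The microglial shares were 3.31%, 3.12% and 1.89% for Olig2 and 1.99%, 3.41% and 2.57% for Sox10. Neu4, a sialidase, was detected in 75.1%, 77.9% and 69.97% of OPCs and in 1.10%, 0.568% and 0.343% of microglia. Ptprz1, a receptor phosphatase carrying chondroitin sulfate, was detected in at least 98.4% of OPCs and in 12.7% to 13.6% of microglia in each library.

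OPCs were set beside 3 related populations gated in the same libraries on their own markers: newly formed oligodendrocytes (214, 117 and 156 cells), mature oligodendrocytes (406, 315 and 431) and astrocytes (800, 777 and 1188). Since all these cells were gated on their transcripts, the contrasts are descriptions with no test. A gene was counted when its mean levels differed at least 2-fold and its 3 library values did not overlap between the populations. That held for 24.9% of the genes considered as higher in OPCs than in newly formed oligodendrocytes and for 9.8% as lower. The shares were 33.1% and 9.21% against mature oligodendrocytes and 22.9% and 11.4% against astrocytes. Genes considered here had a mean of at least 30 CPM in either population. Members of the gene lists below count as measured from 10 CPM, so their counts and these shares have unlike minimums. The list counts between populations keep the mixed cells and were not computed without them.

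**Figure D1:**
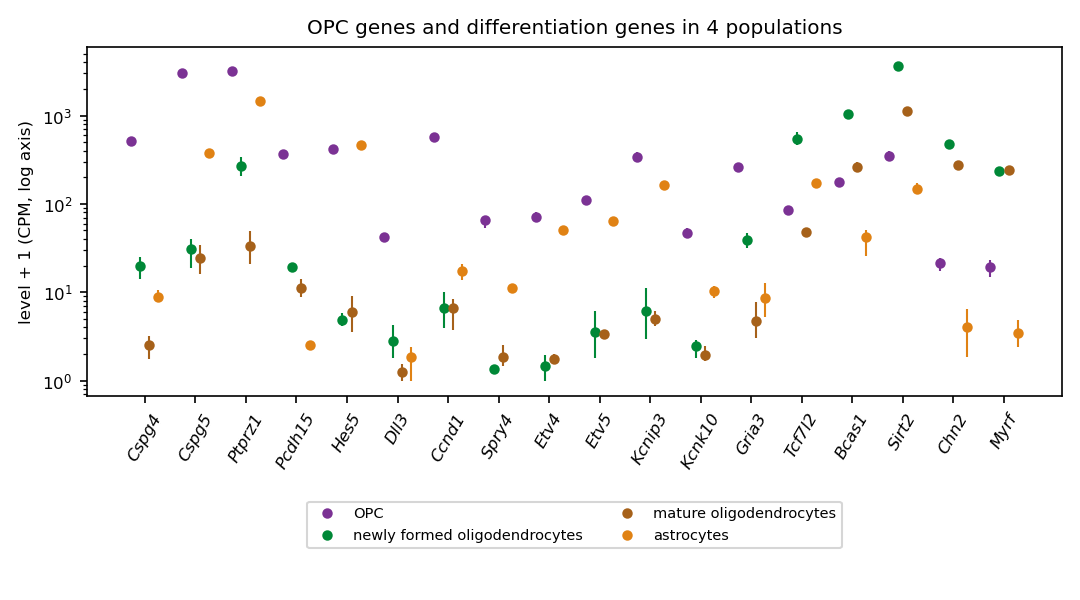
Levels in CPM plus 1 on a log axis for 18 genes in OPCs, newly formed oligodendrocytes, mature oligodendrocytes and astrocytes. Points are means of the 3 libraries and bars run from the lowest to the highest library. Cspg4, Dll3, Ccnd1, Spry4 and Etv4 stand highest in OPCs, while Tcf7l2, Bcas1 and Sirt2 peak in newly formed oligodendrocytes.

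Of the 29 measured genes of OPC identity outside the rule, 19 were higher in OPCs than in newly formed oligodendrocytes and 1 was lower, and 25 were higher and 0 lower against mature oligodendrocytes. Cspg4 was at 495, 520 and 519 CPM in the SC, 5-day and 15-day OPCs, against a mean of 18.6 CPM in newly formed and 1.55 CPM in mature oligodendrocytes. Pcdh15, a protocadherin, was at 352, 398 and 345 CPM against 18.1 and 10.3 CPM. Both genes were thus close to equal in the 3 diets and far apart between stages. Gpr17, the receptor of cells about to differentiate, went the other way, at 568, 589 and 630 CPM in OPCs and a mean of 1008 CPM in newly formed oligodendrocytes. Tnr, a tenascin of the perineuronal matrix, was at 438, 473 and 465 CPM against 671 CPM. Both differences were under 2-fold, and Gpr17, a gene of the gates, was not among the 29 genes counted.

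Genes induced by growth factor signalling through the MAP kinase cascade stood out among the stages. Of 26 measured, 20 were higher and 0 lower in OPCs than in newly formed oligodendrocytes, with a median log2 difference of 2.11. Spry4, an inhibitor of receptor tyrosine kinase signalling, was at 51.7, 70.2 and 72.3 CPM in OPCs and at most 0.461 CPM in newly formed oligodendrocytes. Etv4, an ETS transcription factor downstream of the cascade, was at 63.9, 79.3 and 67.8 CPM and at most 0.922 CPM. The phosphatase gene Dusp6, which switches ERK off, was at 41.2, 47.2 and 32.9 CPM and at most 0.393 CPM. Ccnd1, the cyclin that growth factors raise to start the cell cycle, was at 530, 636 and 564 CPM against a mean of 5.66 CPM. The levels of these 4 genes in the 3 OPC libraries never overlapped those of newly formed oligodendrocytes. Astrocytes shared part of the group: 10 of 26 genes were higher and 2 lower in OPCs, and Etv4 stood at a mean of 50.1 CPM in astrocytes.

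The Notch pathway, which holds precursors back from differentiation, showed the same order. Of 22 measured genes, 16 were higher and 0 lower in OPCs than in newly formed oligodendrocytes. The ligand genes Dll1 and Dll3 were at 38.9, 45.2 and 37.9 CPM and at 41.5, 46.2 and 35.9 CPM in OPCs, against means of 1.28 and 1.82 CPM. Hes5, a Notch target that represses myelin genes, was at 375, 430 and 442 CPM against 3.88 CPM, and was as high in astrocytes (461 CPM).

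Genes for the reception of neuronal signals were concentrated in OPCs within the lineage. Glutamate receptor and auxiliary genes were higher in OPCs than in newly formed oligodendrocytes for 23 of 27 genes and lower for 1. GABA and glycine receptor genes were higher for 13 of 17 and lower for 1, and ion channel genes for 26 of 33 and lower for 3. Gria3, an AMPA receptor subunit, was at 259, 292 and 234 CPM in OPCs, 38.3 CPM in newly formed oligodendrocytes and 153 CPM in neurons. The metabotropic receptor gene Grm5 was at 196, 231 and 190 CPM against 10.9 and 231 CPM. Kcnip3, a potassium channel partner and calcium sensor, was at 317, 385 and 324 CPM against 5.07 and 12.4 CPM. Gria3 and Kcnip3 were higher still without mixed cells (348, 316 and 280 CPM, and 463, 494 and 418 CPM), whereas Grin2b, an NMDA receptor subunit, went from 60.7, 92.1 and 32.0 CPM to 7.17, 12.8 and 6.89 CPM.

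Genes that open differentiation and genes of myelin were mostly lower in OPCs than in newly formed oligodendrocytes. Of 22 measured genes of differentiation onset, 17 were lower and 2 higher than in newly formed oligodendrocytes, and of 15 measured myelin genes 14 were lower and 0 higher. Against mature oligodendrocytes 11 of 19 onset genes were higher and 4 lower, and 0 of 15 myelin genes higher and 13 lower. Against astrocytes 11 of 20 onset genes were higher and 1 lower, and 9 of 15 myelin genes higher and 1 lower. Sirt2, a deacetylase of early myelin, was at 392, 318 and 344 CPM against a mean of 3624 CPM. Tcf7l2, the Wnt effector that marks the premyelinating window, was at 85.4, 86.7 and 77.7 CPM against 540 CPM. Myrf, the master activator of myelin genes, was at 22.4, 13.8 and 18.7 CPM against 236 CPM. Of the other genes that stood lowest in OPCs by the rule for named genes, Nkx2-9, a homeobox gene, had no UMI in the OPCs of any library, and the cell adhesion gene Epcam was at 0.290, 0 and 0 CPM and the protease gene Klk6 at 0.871, 0 and 12.3 CPM.

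Receptors for leptin, melanocortin and GLP-1 were low in OPCs. Lepr, the leptin receptor, was at 5.81, 5.06 and 4.92 CPM in OPCs, Mc4r, the melanocortin 4 receptor, at 1.16, 2.02 and 1.97 CPM, and Glp1r, the receptor of the incretin GLP-1, at 3.77, 8.77 and 5.41 CPM. Lepr and Glp1r were lower without mixed cells in each library (2.39, 3.31 and 4.82 CPM, and 0.957, 2.84 and 3.45 CPM). The insulin receptor gene Insr was at 40.1, 42.5 and 51.1 CPM and the thyroid hormone receptor gene Thra at 370, 311 and 328 CPM. Of 20 genes of the metabolic and hormone receptor list 11 were higher and 3 lower than in newly formed oligodendrocytes. Of the list's 20 measured genes 0 passed the size rule given next in either direction at 5 days, and 0 of 19 at 15 days.

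Diets were compared by a rule of size, since no test is possible. A gene passed when its CPM differed at least 1.5-fold, its UMIs in the pair of libraries summed to 100 or more, its level reached 30 CPM in one of them, and its counting interval lay wholly beyond 0.32 on the log2 scale. At 5 days 25 genes passed as higher than SC (0.352% of the genes considered) and 153 as lower (2.15%). Without mixed cells 18 passed as higher (0.268%) and 7 as lower (0.104%), and only 2 of the lower genes passed both ways. At 15 days 103 passed as higher (1.47%) and 155 as lower (2.22%), and without mixed cells 64 (0.98%) and 60 (0.919%), with 54 and 29 passing both ways. Scaling moved the 15-day split: 39.9% of the genes that passed were higher under scaling to total UMIs and 57.3% under TMM scaling, and the median log2 ratio of all genes was -0.08 and -0.01.

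**Figure D2:**
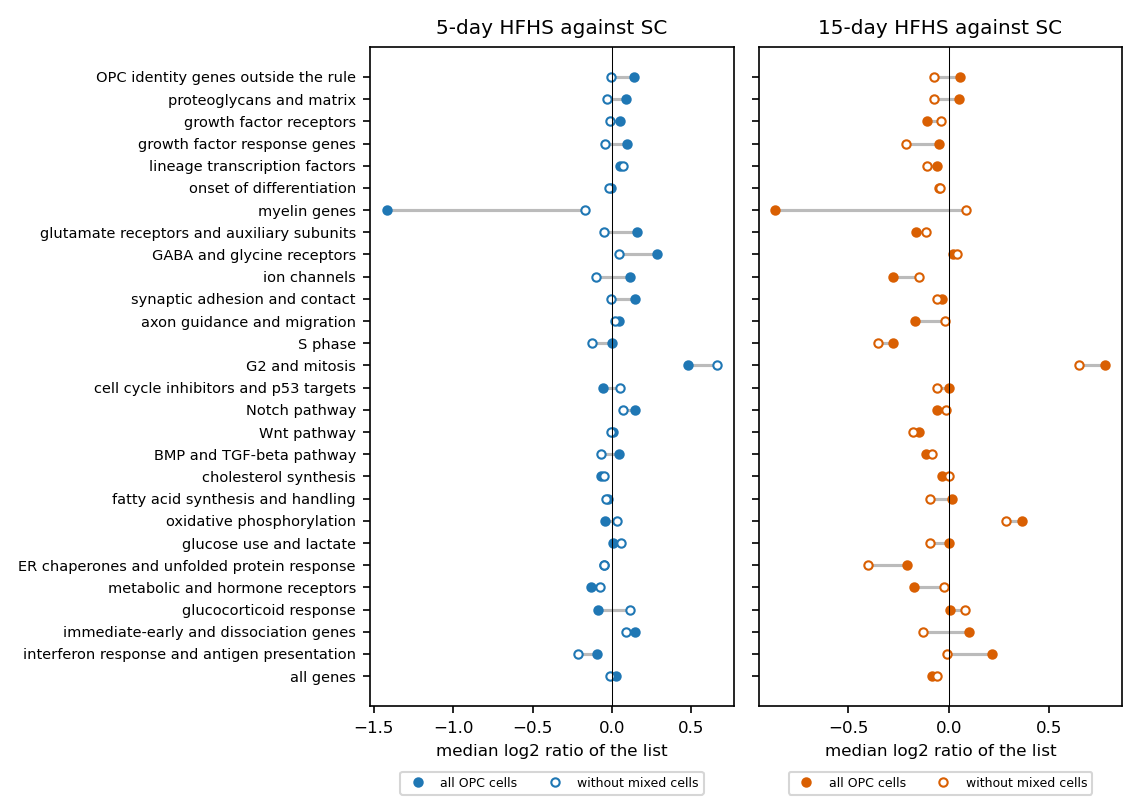
Median log2 ratio to SC of 27 gene lists and of all genes, at 5 days (left) and 15 days (right). Filled points use all OPCs and open points leave out mixed cells. Myelin genes sit far below 0 with all OPCs (-1.42 and -0.86) and close to 0 without mixed cells (-0.17 and 0.09), while ER chaperones lie lower without them at 15 days (-0.40).

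The genes named as lower at 5 days were mostly those of myelin and of cilia. Mag, a myelin glycoprotein, was at 332 CPM under SC, 37.1 at 5 days and 112 at 15 days, with a 5-day log2 ratio of -3.16 (-3.46 to -2.88). One SC cell held 27.9% of its SC UMIs, and without mixed cells its levels were 13.4, 8.05 and 17.9 CPM and the 5-day log2 ratio -0.73. Opalin, Mog, Cldn11 and Mal, also myelin genes, had 5-day log2 ratios from -2.91 to -2.26. The ciliary genes Ak7, Spef2 and Tmem212 had log2 ratios of -2.60, -2.57 and -2.39. The marker sums given above hold some of these same genes, and the same markers define mixed cells, so the lower levels without mixed cells are partly set by that definition. Of 20 measured myelin genes 14 passed as lower at 5 days and 13 at 15 days, against 2 of 14 and 0 of 15 without mixed cells. Of all genes considered 2.15% and 2.22% passed as lower, and 0.104% and 0.919% without mixed cells. At 15 days 1 gene of the list passed as higher in each set.

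Mbp and Mobp, encoding 2 major myelin proteins, kept a 5-day difference when mixed cells were left out. Mbp was at 829, 482 and 549 CPM in all OPCs and at 511, 313 and 382 CPM without mixed cells, with a 5-day log2 ratio of -0.71 there. Mobp was at 283, 90.4 and 126 CPM in all OPCs, a 5-day log2 ratio of -1.64. Without mixed cells its levels were 93.7, 57.8 and 63.4 CPM and the log2 ratio -0.70. It shares exons on the same strand with another gene model, so its count is uncertain. Over the other populations the median log2 ratios of Mbp and Mobp were 0.05 and -0.13. Such medians of a gene, here and below, keep the mixed cells of the other populations. These genes, like all further ones named from the cells without mixed cells, were chosen after the data were seen.

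Few genes were higher at 5 days. Nr4a1, an immediate-early nuclear receptor gene, was at 43.6 CPM under SC, 70.5 at 5 days and 58.5 at 15 days, with a 5-day log2 ratio of 0.70 (0.39 to 1.01) and 0.59 without mixed cells. Ier3, another immediate-early gene, was at 36.9, 58.4 and 44.7 CPM, with a log2 ratio of 0.66 (0.32 to 1.00) and 0.75 without mixed cells, against a median of -0.24 over the other populations. Of the 20 measured immediate-early and dissociation genes 2 passed as higher and 0 as lower, with a list median of 0.15 against 0.02 for all genes. Of all genes considered 0.352% passed as higher and 2.15% as lower. Isca1, of iron-sulfur cluster assembly, was at 16.8, 31.4 and 24.1 CPM and had a log2 ratio of 0.90 (0.41 to 1.4). It shares exons on the same strand with another gene model, so its count is uncertain. Hes1, a Notch target, was at 102, 158 and 114 CPM without mixed cells, a log2 ratio of 0.63.

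Knl1, a kinetochore gene, had a log2 ratio of 1.5 in all OPCs and 1.85 without mixed cells. Other genes named at 5 days depended on mixed cells or on 1 cell. Klc2, a kinesin light chain gene, had 0.97 in all OPCs and 0.51 without mixed cells, and Peg10, an imprinted gene, 0.77 and 0.36. Grin2b had 0.60 and 0.83, the latter with an interval of -0.13 to 1.85 at the low levels given above. None of these 3 genes passed without mixed cells. Ntng1, a synaptic adhesion gene, had a log2 ratio of 1.10 in all OPCs and -1.01 without mixed cells, and Vgf, a neuropeptide precursor, 0.93 and -0.06. Hbb-bs, a beta globin gene, had a log2 ratio of 1.5, but 1 cell held 91.3% of its 5-day UMIs. The neuropeptide genes Avp and Npy were higher in all OPCs (0.94 and 1.66), with 92.3% and 82.1% of their 5-day UMIs in 1 cell, and lower without mixed cells (-2.12 and -0.96). Avp was detected in 32.5%, 12.1% and 16.2% of OPCs and in 35.3%, 16.2% and 14.9% of microglia, and Npy in 25.7%, 20.4% and 25.7% of OPCs and 17.7%, 13.6% and 16.6% of microglia. Whether these UMIs were background was not tested.

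Several of the genes with the largest 15-day ratios had high ratios in the other populations as well. Hist1h2ap, a replication-dependent histone gene, was at 16.0, 22.9 and 416 CPM, with a 15-day log2 ratio of 4.70 (4.31 to 5.13), and the median over the other populations was 4.64. Nme2, a nucleoside diphosphate kinase gene, was at 6.68, 5.4 and 76.2 CPM, a log2 ratio of 3.51 against 3.85 in the other populations. Gstp1, Bloc1s1 and H2ac8 had log2 ratios of 2.36, 2.10 and 1.98 against 2.29, 1.74 and 1.63. Of the 103 genes that passed as higher at 15 days, 46 also had a median ratio of at least 1.5-fold over the other populations, in the same direction. The size rule was not applied in those populations, and the share of all genes considered with such a median was not counted. Nme2 and Bloc1s1 share same-strand exons with another gene model.

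**Figure D3:**
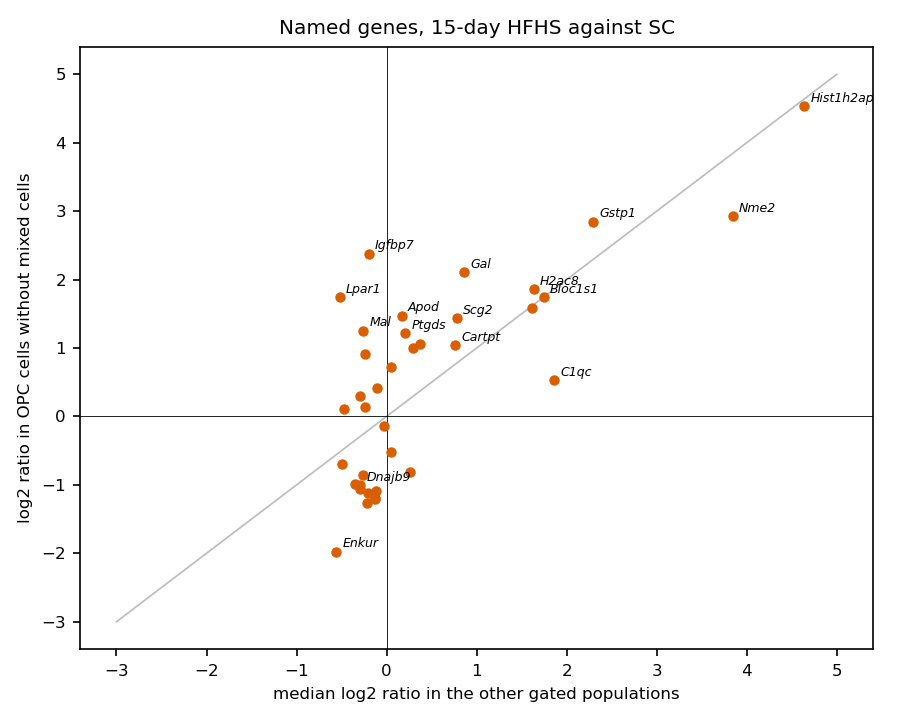
Log2 ratio of the 15-day library to SC for 37 named genes, in OPCs without mixed cells (vertical) against the median over the other gated populations (horizontal). The other populations keep their mixed cells. The grey line marks equal ratios. Hist1h2ap, Bloc1s1 and H2ac8 lie near it, Nme2 lies below it, and Gstp1, Igfbp7, Lpar1 and Apod lie above it.

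Several other genes named as higher at 15 days had a large part of their UMIs in 1 cell or had lower ratios without mixed cells. The neuropeptide genes Gal and Cartpt had log2 ratios of 4.00 and 2.94, with 77.2% and 77.4% of their 15-day UMIs in 1 cell, against medians of 0.86 and 0.76 in the other populations. Their ratios were 2.10 and 1.12 without the top cell, and 2.11 and 1.05 without mixed cells. Plvap, an endothelial fenestration gene, had 2.67 in all OPCs and -0.36 without mixed cells. C1qb and C1qc, complement genes of microglia, had 2.54 and 1.85, and 1.59 and 0.53 without mixed cells. Igfbp7, an endothelial and mural gene, had 2.07 against -0.20 in the other populations, with 48.5% of its 15-day UMIs in 1 cell. Its ratio was 1.58 without the top cell, 2.38 without mixed cells and -0.14 with at least 4 markers. Markers of leptomeningeal fibroblasts summed to 10.7, 8.44 and 148 CPM in OPCs and to 1.43, 2.37 and 103 CPM without mixed cells; their part in the 15-day ratios was not tested.

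In OPCs without mixed cells, some genes were higher at 15 days by at least 0.5 (log2) more than in the other populations, whose mixed cells were kept. Among these genes was Apod, an apolipoprotein of lipid transport, at 20.1, 11.8 and 55.8 CPM (log2 ratio 1.47 against 0.17 elsewhere). In all OPCs the ratio of Apod was 0.86, and it was 0.51 with at least 2 Pdgfra UMIs and 0.25 with at least 4 markers. Apod was detected in 17.2%, 10.0% and 14.5% of OPCs, with no higher share in the shallower 15-day cells, and its level in the rest of the libraries was 627, 567 and 639 CPM. Scg2, a secretogranin of neuroendocrine granules, was at 47.4, 29.4 and 128 CPM (1.44 against 0.78). In all OPCs the ratio of Scg2 was 1.12. It was 0.67 with at least 2 Pdgfra UMIs, 0.81 with at least 4 markers and 1.99 at no more than 10% mitochondrial UMIs. The top 15-day OPC held 21.2% of the Scg2 UMIs, and the level in the rest of the libraries was 103, 112 and 218 CPM. Mrpl21, a mitochondrial ribosome gene, was at 89.0, 105 and 147 CPM (0.72 against 0.05). Mrpl21 was detected in 46.4% of SC and 50.5% of 15-day OPCs, and no cell held more than 4.1% of its UMIs.

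Col25a1, a collagen gene, was lower at 15 days in all OPCs, at 61.0, 20.6 and 8.36 CPM (-2.87, and -0.70 without mixed cells). The next genes passed as lower without mixed cells and lay at least 0.5 (log2) below the other populations, whose mixed cells were kept. Ngly1, the enzyme that removes N-glycans from misfolded proteins, was at 59.3, 44.0 and 24.8 CPM (-1.26 against -0.22 elsewhere), and its detection went from 35.8% of SC to 14.9% of 15-day OPCs. Rest, the repressor of neuronal genes, was at 54.0, 48.3 and 24.8 CPM (-1.12 against -0.21). Tgfb2, a growth factor of the TGF-beta family, was at 40.2, 30.3 and 19.3 CPM (-1.06 against -0.29). Dnajb9, an ER co-chaperone, was at 104, 122 and 51.7 CPM (-1.01 against -0.29), and its detection went from 48.6% to 26.4% of OPCs. By the same measure Gramd1a, Kat8, Tubgcp4 and Nmd3 had log2 ratios of -1.20, -1.19, -1.09 and -0.99. For Ngly1, Rest, Tgfb2 and Dnajb9 the 5-day levels lay above the 15-day levels. The 15-day OPCs were also the shallowest, and a shallower cell detects fewer genes.

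Of the ER chaperone genes, 5 passed as lower at 15 days. The list holds the folding machinery of the endoplasmic reticulum, whose genes are induced when unfolded proteins accumulate there. Of 26 measured genes 18 were lower than SC and 0 passed as higher, and the median log2 ratio was -0.21 against -0.08 for all genes. Over all genes 6514 of 10811 were lower and 2.22% of those considered passed as lower. Without mixed cells 18 of 25 were lower, 5 passed as lower and 0 as higher, and the median was -0.40 against -0.06. Over all genes 5302 of 9059 were then lower and 0.919% passed as lower. In the other 6 populations, with their mixed cells kept, the list's median lay between -0.22 and -0.02. The median of -0.21 in all OPCs lay within that range, and the difference from OPCs was not tested. At 5 days the median was -0.05 in both sets of OPCs. Thinned to 2000 UMIs per cell the 15-day median was -0.43, and under TMM scaling, which also moved the median of all genes, -0.13.

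The promoters of 4 of these genes are shown as examples of those that hold the ER stress response element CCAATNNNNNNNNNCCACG, searched on both strands in the 250 bases before each gene start. Of 25 list genes found in the RefSeq promoter table (GRCm38.p6), 8 held it (32.0%), and so did 35 of all 27025 genes there (0.130%). The 8 were Hspa5, Calr, Hsp90b1, Canx, Pdia6, Dnajc3, Creld2 and Syvn1. Of the 5 list genes that passed without mixed cells, Pdia6 alone was among them. A match describes these letters and is no measure of binding. Capitals mark the element, read 5′ to 3′ on the strand of the gene; in reverse it reads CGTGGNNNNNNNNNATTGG.
Hspa5: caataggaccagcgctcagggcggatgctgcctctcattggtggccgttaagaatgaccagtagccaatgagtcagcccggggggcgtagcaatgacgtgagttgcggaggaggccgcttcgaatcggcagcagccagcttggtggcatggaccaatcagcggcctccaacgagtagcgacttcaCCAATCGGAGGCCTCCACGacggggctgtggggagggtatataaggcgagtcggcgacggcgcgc
Hsp90b1: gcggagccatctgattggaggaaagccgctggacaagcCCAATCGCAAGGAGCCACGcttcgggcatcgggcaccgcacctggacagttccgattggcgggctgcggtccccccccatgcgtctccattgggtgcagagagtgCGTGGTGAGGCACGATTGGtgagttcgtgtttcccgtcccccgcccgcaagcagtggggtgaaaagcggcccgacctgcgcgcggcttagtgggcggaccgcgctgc
Pdia6: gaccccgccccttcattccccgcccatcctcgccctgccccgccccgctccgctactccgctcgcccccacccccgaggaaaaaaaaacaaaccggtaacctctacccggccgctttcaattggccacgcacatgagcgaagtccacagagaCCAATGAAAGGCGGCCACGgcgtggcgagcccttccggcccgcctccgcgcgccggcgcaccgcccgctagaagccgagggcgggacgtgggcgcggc
Dnajc3: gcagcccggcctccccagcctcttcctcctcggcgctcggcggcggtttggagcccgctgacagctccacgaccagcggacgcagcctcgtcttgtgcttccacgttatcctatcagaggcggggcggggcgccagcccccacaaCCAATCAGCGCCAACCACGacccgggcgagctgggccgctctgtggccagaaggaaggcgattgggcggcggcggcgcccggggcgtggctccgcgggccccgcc
The windows are chr2:34771840-34772089, plus strand (Hspa5), chr10:86705445-86705694, minus strand (Hsp90b1), chr12:17266339-17266588, plus strand (Pdia6) and chr14:118937682-118937931, plus strand (Dnajc3). Hsp90b1 holds the element once in each direction and the other genes once.

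Hspa5, the main ER chaperone BiP, was at 793, 613 and 590 CPM in all OPCs and at 901, 704 and 631 CPM without mixed cells, where its 15-day log2 ratio was -0.51 (-0.63 to -0.40) against a median of -0.32 elsewhere. Hsp90b1, the ER chaperone GRP94, was at 1360, 1206 and 1029 CPM without mixed cells (-0.40). Neither reached a 1.5-fold difference. The disulfide isomerases Pdia6, Pdia4 and Pdia3 were at 764, 681 and 469 CPM, at 151, 129 and 86.1 CPM, and at 729, 668 and 447 CPM, with 15-day log2 ratios of -0.71, -0.81 and -0.71. The co-chaperone Dnajb11 was at 227, 223 and 134 CPM (-0.76). With Dnajb9, given above, these are the 5 list genes that passed without mixed cells. Dnajc3, another co-chaperone, was at 162, 113 and 105 CPM in all OPCs (-0.62) and passed only there. In the other populations, with their mixed cells kept, the medians for Pdia6, Pdia4, Pdia3, Dnajb11 and Dnajc3 were -0.40, -0.42, -0.54, -0.37 and -0.39. Of the 7 list genes that were higher without mixed cells, Atf4 and Ddit3, transcription factors of the stress response, had 0.14 and 0.41, and Atf6, a stress sensor, 0.56, each with an interval that included 0.

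**Figure D4:**
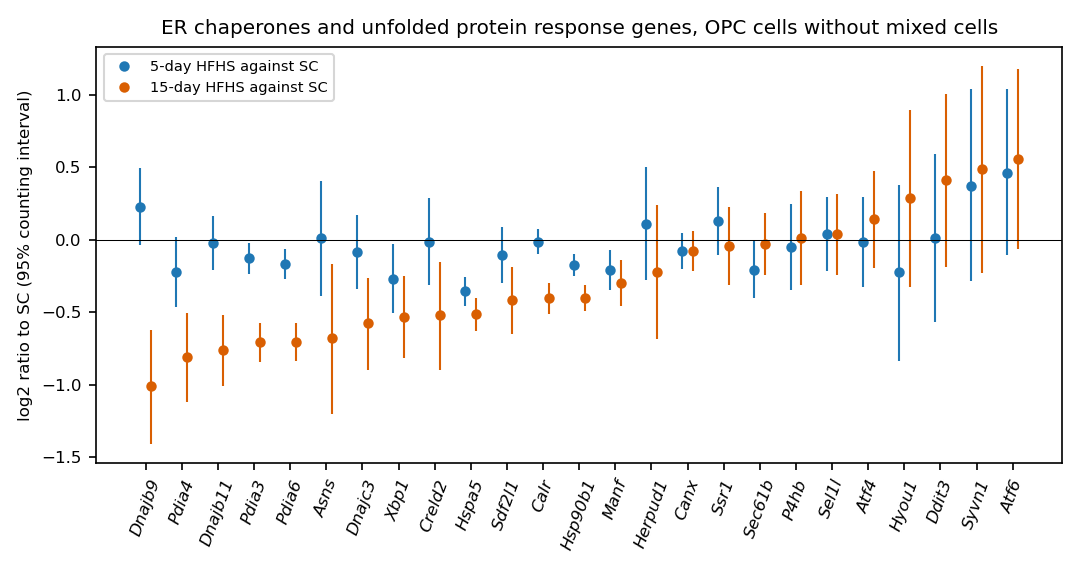
Log2 ratio to SC of 25 genes of the ER chaperone list in OPCs without mixed cells, at 5 days (blue) and 15 days (orange). Bars are 95% counting intervals. The 15-day points of Dnajb9, Pdia4, Dnajb11, Pdia3 and Pdia6 lie between -1.01 and -0.71, and their 5-day points lie nearer 0.

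Genes of oxidative phosphorylation were higher at 15 days, in OPCs and elsewhere. Of 34 measured genes of the nuclear-encoded respiratory chain 33 were higher than SC and 5 passed the size rule, with a median log2 ratio of 0.36. Over all genes 4297 of 10811 were higher, 1.47% of those considered passed as higher, and the median was -0.08. Without mixed cells 30 of 34 were higher, 2 passed, and the median was 0.29. Over all genes 3757 of 9059 were then higher, 0.98% passed as higher, and the median was -0.06. The other populations, with their mixed cells kept, had medians from -0.03 in astrocytes to 0.42 in neurons. Atp5k, a subunit of ATP synthase, was at 321, 360 and 558 CPM (0.80, against 0.61 elsewhere), and Ndufc1, a complex I subunit, at 269, 243 and 409 CPM (0.60 against 0.40). The ribosomal share of OPC UMIs, given above, was highest in the same library; its part in these ratios was not tested.

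The lists for OPC identity, growth factor response, Notch and differentiation onset held few genes that differed with diet. OPC identity genes had 15-day medians of 0.06 in all OPCs and -0.07 without mixed cells, and 0 of 30 passed in either direction. At 5 days 1 of 30 passed as lower, and 0 without mixed cells. Of the measured genes of Notch (22) and differentiation onset (21), 0 passed at 15 days in all OPCs. Olig2 was at 683, 749 and 532 CPM, a 15-day log2 ratio of -0.36, and Sox10 at 294, 335 and 422 CPM, a ratio of 0.52; neither passed. For growth factor response genes the 15-day median was -0.05, and -0.22 without mixed cells, where 19 of 25 were lower and 1 passed: Spry2, an inhibitor of receptor tyrosine kinase signalling, at 137, 157 and 85.4 CPM (-0.68). Ion channel genes were lower for 28 of 33 at 15 days with a median of -0.28, and for 27 of 32 with -0.15 without mixed cells, and 0 passed; over all genes 6514 of 10811 were lower, and 5302 of 9059 without mixed cells. The neuron marker sum was lowest in the same library, and its part was measured only by leaving out mixed cells. Cholesterol synthesis genes had medians of -0.03 and 0.00 at 15 days, with 0 of 25 passing in all OPCs. Without mixed cells 2 of 25 passed as lower, against 0.919% of all genes considered. These were Hmgcs1 (223, 181 and 145 CPM) and Acat2 (62.7, 49.2 and 35.1 CPM), which act at the start of sterol synthesis.

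Dividing OPCs were present in every library. A cell was called cycling when it held at least 3 of 12 core cell cycle genes, all but Rrm2 also on the list of G2 and mitosis used below. This gave 31 of 366 OPCs under SC (8.47%, 5.83 to 11.8), 17 of 289 at 5 days (5.88%, 3.46 to 9.25) and 15 of 303 at 15 days (4.95%, 2.80 to 8.03), against 0.653%, 0.580% and 0.289% of the rest of each library. The intervals overlapped. Cycling cells were deeper, with a median of 12879, 14828 and 11751 UMIs against 7288, 8896 and 5488.5 in other OPCs. Thinned to 2000 UMIs per cell, with 23, 21 and 30 shallower cells left out, the shares were 4.37%, 4.48% and 4.03%, so no order of the diets is read from them. Without mixed cells they were 6.95%, 5.47% and 4.92%.

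Genes of G2 and mitosis were higher than SC at 5 and 15 days. S phase genes took 757, 732 and 628 CPM of all OPC UMIs, and genes of G2 and mitosis 781, 1073 and 1334 CPM. At 15 days 29 of 29 measured G2 and mitosis genes were higher than SC and 10 passed, with a median of 0.78 (0.65 without mixed cells, where 26 of 27 were higher). At 5 days 27 of 31 were higher and 5 passed, with a median of 0.48 (0.66 without mixed cells). Over all genes 4297 of 10811 were higher at 15 days (3757 of 9059 without mixed cells) and 6088 of 11175 at 5 days. Of those considered 1.47% and 0.352% passed as higher, and the medians were -0.08 and 0.02. S phase genes were lower for 17 of 21 at 15 days, against 6514 of 10811 over all genes. Their median was -0.28, and 0 passed in either direction. At 5 days 13 of 26 were higher and 13 lower, 0 passed, and the median was 0.00 (-0.13 without mixed cells). Cenpa, a centromeric histone, was at 23.5, 43.5 and 54.6 CPM, Ube2c, of the anaphase-promoting complex, at 52.8, 83.0 and 112 CPM, and Mki67, the proliferation antigen, at 44.1, 67.5 and 82.6 CPM. Fen1, a nuclease of replication, was at 25, 18.2 and 14.7 CPM and Mcm6, a helicase subunit, at 43.6, 36.8 and 30 CPM. These levels rest on very few cells: 50% of the G2 and mitosis UMIs lay in 4, 2 and 4 cells. Cycling cells held 92.7%, 95.6% and 96.1% of these UMIs. That share is largely set by the call, since most of its core genes are on this list. With equal weight for each cell the 15-day median of the list was 0.26 and the 5-day median 0.12, and without the top cell of each gene the medians were 0.67 and 0.29.

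**Figure D5:**
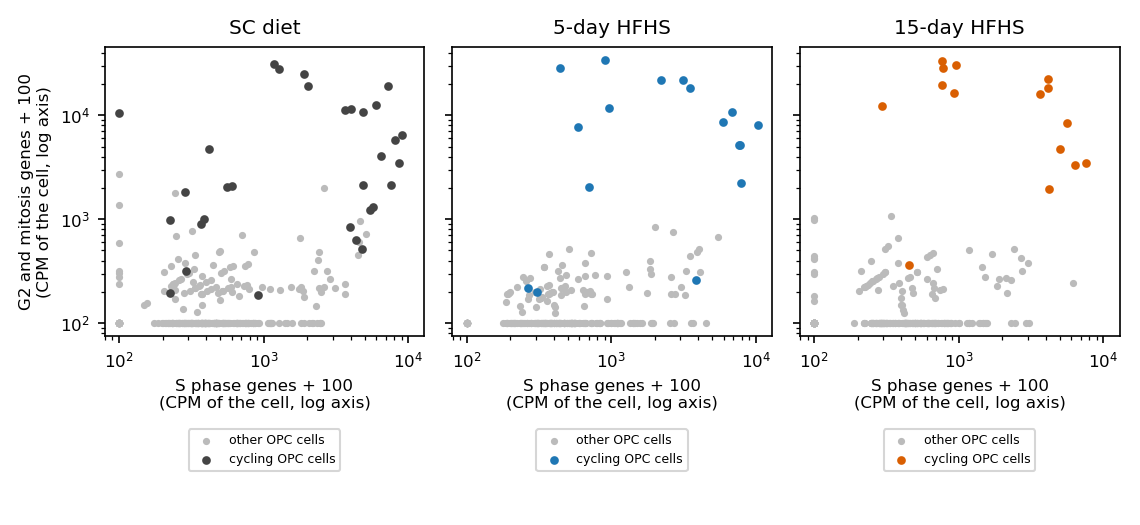
Summed level of S phase genes (horizontal) and of G2 and mitosis genes (vertical) in each OPC, in CPM of the cell plus 100 on log axes, by library. Coloured points are the 31, 17 and 15 cycling cells and grey points the other OPCs. The cells with the highest mitotic levels are a small number in each library.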

How the data were processed

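The 3 libraries were made with a 10x Genomics 3′ kit, version 3.1, from pooled arcuate nuclei, per the labels' protocols. The authors deposited matrices of raw UMI counts for 31253 genes and each barcode, made with Cell Ranger on GRCm38; SAMtools and Scanpy 1.4.4 are also named, per the submitters' processing notes. The file headers give software version 3.1.0, and the annotation is not given in the sources used here. The libraries held 7116, 6204 and 7823 barcodes and 59315940, 52735770 and 43193012 UMIs.

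OPC UMIs were summed per library (3444153, 2963640 and 2033982) and scaled to CPM (per 1000000 UMIs). A 3′ UMI count is not scaled to gene length. Ratios have exact conditional intervals and shares exact Clopper-Pearson intervals at 95%, for counting error only. edgeR 4.0.16 and DESeq2 1.42.0 (R 4.3.3) supplied scaling factors only. Scrublet (Scanpy 1.11.5) scored doublets; none were removed, and the top scores (0.8% per 1000 barcodes) were left out as an alternative. Python 3.11.15, NumPy 2.4.6, SciPy 1.17.1, pandas 2.3.3 and Matplotlib 3.10.9 were used. Alternatives were other limits on genes, mitochondrial UMIs and markers, and other depth, weighting, scaling and count minimums.

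Genes named between diets were the 12 with the largest ratios per direction that passed the size rule, kept a 1.5-fold ratio without their top cell and were detected in at least 5% of OPCs of a library, outside ribosomal, mitochondrial and unnamed gene models. List medians use members with at least 50 UMIs. Per population and direction the 10 largest differences among genes outside the gates were eligible. Some genes that met these rules are not reported here. Up to 8 genes per direction were added from the cells without mixed cells. The members, the 28 gene lists and the rules were chosen with earlier results of these data known. Of the 66 genes named between diets, 7 share same-strand exons with another gene of GENCODE vM21.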

Additional observations from a re-analysis of the deposited data

Results flagged for a closer look

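Barcodes outside the analysed cells also carried OPC markers. There were 78 barcodes (35 under SC, 20 at 5 days and 23 at 15 days) that met every marker condition but held more than 20% mitochondrial UMIs. There were 78 cells (41, 16 and 21) with at least 3 of the other markers and no Pdgfra UMI. Neither group was counted among the OPCs. The 78 cells without Pdgfra stay among the cells of their libraries in every share.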

How the results depend on the processing

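No paired analysis was possible because each diet has 1 library. The share of OPCs kept its place against SC under all 5 other gatings at 15 days (log2 ratio -0.45 to -0.34) and at 5 days (-0.08 to -0.01). Without mixed cells it was -0.30 at 15 days and 0.03 at 5 days. None of these gatings was looser than the rule. Cells with Pdgfra and only 1 other marker were most numerous in the 15-day library. So were cells over the limits on Bmp4, Enpp6, Cldn5 or Cx3cr1. The share with such cells added was not computed. The counts in each population contrast stayed within 1.5-fold without mixed cells.

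Counts of genes past the size rule moved by over 1.5-fold as follows, and the cause was not tested. At 5 days the higher genes numbered 43 with minimums of 50 UMIs and 10 CPM, 70 with no minimum, 3 thinned, 10 without the top cell of each gene and 14 without cycling cells. The lower ones numbered 323, 516 and 11 under the first 3 of these settings, 93 without cycling cells, 96 with at least 2 Pdgfra UMIs, 90 with at least 4 markers, 54 with equal weight of cells and 7 without mixed cells. At 15 days the higher genes numbered 292 with no minimum, 38 thinned and 64 without mixed cells. The lower ones numbered 238 with the smaller minimums, 312 with none, 20 thinned, 60 without mixed cells, 100 under TMM and 101 under median-of-ratios scaling. Thinning removes most UMIs, so fewer genes could pass. The cycling share under SC was 4.37% thinned.

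Directions turned for some named genes. Without mixed cells, the 15-day log2 ratios were 0.11 for Cldn11, 1.75 for Lpar1, 0.42 for Mag, 1.26 for Mal, 0.14 for Neat1, -0.36 for Plvap and 0.91 for Septin4, and the 5-day ratios -2.12 for Avp, -0.96 for Npy, -1.01 for Ntng1 and -0.0577 for Vgf. List medians turned there at 15 days for myelin (0.0870) and for interferon and antigen presentation (-0.00694). The 5-day ratio of Avp was -2.11 at 10% mitochondrial UMIs, -0.74 with equal weight, -1.16 thinned and -2.05 without its top cell. That of Npy was -0.63 with 2 Pdgfra UMIs, -0.47 with 4 markers, -0.0252 with equal weight and -0.72 without its top cell. That of Hbb-bs was -1.44 without its top cell and -1.54 without the highest Scrublet scores. At 15 days, 2 Pdgfra UMIs gave -0.34 for Dlk1 and -0.31 for Ptgds, 4 markers gave -0.14 for Dlk1, -0.14 for Igfbp7 and -0.0208 for Ptgds, and thinning gave -0.13 for C1qc and 0.29 for Septin4. Of 662 alternatives to list medians, 632 moved by less than 0.2. Lists with under 5 measured genes in a setting have no value there. With 1 library per diet, diet, pool, dissociation and depth cannot be told apart.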
